A study of Mus musculus with 10 samples.

Results

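Immunoglobulin transcripts were examined in CD31-positive cells that were taken from B16F10 melanomas. The genes were all symbols of the deposited tables that begin with Ighv, Igkv, Iglv, Ighg or Iglc, together with Ighm, Ighd, Igha and Igkc. This rule, which uses names only, found 225 of 28454 symbols: 110 heavy chain V genes, 100 kappa V genes, 3 lambda V genes and 12 constant-region genes. In the GENCODE annotation of GRCm38, 116 of them lie in the heavy chain locus on chromosome 12, 97 in the kappa locus on chromosome 6 and 7 in the lambda locus on chromosome 16, and 5 symbols had no entry. All of these genes were above 0 in at least 1 library, and 35 were above 0 in all 10.

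B16F10 is a transplantable mouse melanoma line. The tumours grew in adult mice, and the hosts were either wild type for Shb or had Shb inactivated in endothelium. For the 4 wild-type libraries the strain is given as Cdh5-CreERt2, an inducible Cre recombinase driven by an endothelial cadherin promoter, and for the 6 Shb-inactivated libraries it is Shbflox/flox/Cdh5-CreERt2. Both groups therefore carry the Cre transgene, and the floxed Shb alleles are what the labels give as different. Whether and when an inducing drug was given is not stated in the labels. Myeloid cells were first depleted through their surface protein CD11b, and CD31-positive cells were then collected with magnetic beads. Values are FPKM, a fragment count scaled to the length of the transcript and the size of the library, so levels of different genes are compared per length.

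Each B cell assembles a heavy chain V gene and a kappa or lambda V gene with short joining segments and then transcribes them spliced to a constant region. Naive B cells use the constant regions of IgM (Ighm) and IgD (Ighd). After activation, class switching can replace them with those of IgG or IgA (Ighg genes and Igha), and plasma cells secrete the product in large amounts. These transcripts are characteristic of B-lineage cells and not of endothelium, and CD31 is carried by some leukocytes as well as by endothelium. In bulk RNA, fewer B-lineage cells and less immunoglobulin RNA per cell cannot be told apart.

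The V genes form families of closely similar copies, and the counts of 1 gene can include reads of another. Of 98 heavy V genes with a transcript sequence, 48 had another member at least 95% identical over the main coding block, and of 89 kappa V genes 37 had one. Results below rest on telling some genes from their nearest copies. The sequences shown are the main coding block of some V genes that led a library, and of the lambda constant genes Iglc2 and Iglc3. They come from GENCODE transcripts on GRCm38 and are printed 5′ to 3′ on the strand of the gene, up to the first 300 bases of the block, with capitals at every base that differs from the partner named. Iglc2 (chr16:19198554-19198853, minus strand, a single coding exon of the lambda constant region) and Iglc3 (chr16:19065382-19065681, minus strand) were 96.2% identical and differed at 12 places, 1 of them a base that is present only in the Iglc2 block.
Iglc2: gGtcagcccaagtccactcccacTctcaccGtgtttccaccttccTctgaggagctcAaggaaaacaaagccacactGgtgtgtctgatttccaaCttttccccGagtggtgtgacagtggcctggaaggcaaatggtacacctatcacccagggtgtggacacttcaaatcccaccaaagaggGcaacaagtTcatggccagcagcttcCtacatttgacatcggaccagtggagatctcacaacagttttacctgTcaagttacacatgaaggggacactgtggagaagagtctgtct
Iglc3: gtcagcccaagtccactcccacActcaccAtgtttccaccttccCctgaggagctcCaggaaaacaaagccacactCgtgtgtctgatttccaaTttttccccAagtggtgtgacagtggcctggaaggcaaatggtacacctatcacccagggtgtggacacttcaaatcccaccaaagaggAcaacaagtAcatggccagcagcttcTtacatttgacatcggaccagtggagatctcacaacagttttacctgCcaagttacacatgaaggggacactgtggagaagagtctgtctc

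Igkv1-110 (chr6:68270955-68271254, plus strand) and Igkv1-117 (chr6:68121515-68121814, plus strand) are kappa V genes, and their V exons were 96.8% identical with 10 differing bases. Each of them was the leading kappa V gene in some of the libraries.
Igkv1-110: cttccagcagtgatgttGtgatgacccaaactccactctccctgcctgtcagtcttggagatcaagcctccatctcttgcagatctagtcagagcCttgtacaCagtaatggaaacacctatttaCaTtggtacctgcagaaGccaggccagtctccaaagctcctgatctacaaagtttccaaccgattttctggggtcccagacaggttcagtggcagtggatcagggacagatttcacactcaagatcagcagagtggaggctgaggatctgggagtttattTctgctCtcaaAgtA
Igkv1-117: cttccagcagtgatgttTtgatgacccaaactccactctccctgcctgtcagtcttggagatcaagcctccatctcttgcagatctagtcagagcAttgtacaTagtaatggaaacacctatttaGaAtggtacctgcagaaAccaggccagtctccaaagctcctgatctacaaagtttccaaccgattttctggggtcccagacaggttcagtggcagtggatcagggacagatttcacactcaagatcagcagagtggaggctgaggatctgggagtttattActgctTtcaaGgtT

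Igkv10-96 (chr6:68631963-68632260, minus strand) was the kappa V gene with the highest mean level and is shown against Igkv10-94, from which it differed at 16 bases. Ighv1-26 (chr12:114788377-114788676, minus strand), the heavy V gene that was most often among the top 3 of a library, is shown against Ighv1-18, with 8 differing bases. Ighv1-72 (chr12:115757989-115758288, minus strand) led wild-type replicate 1 and differed from Ighv1-62-3 at 3 bases.
Igkv10-96: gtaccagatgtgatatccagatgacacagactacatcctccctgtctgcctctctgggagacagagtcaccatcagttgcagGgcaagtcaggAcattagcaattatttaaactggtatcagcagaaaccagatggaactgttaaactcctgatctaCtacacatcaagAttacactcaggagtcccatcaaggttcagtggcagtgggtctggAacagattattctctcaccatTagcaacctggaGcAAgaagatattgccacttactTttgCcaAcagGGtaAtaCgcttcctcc
Ighv1-26: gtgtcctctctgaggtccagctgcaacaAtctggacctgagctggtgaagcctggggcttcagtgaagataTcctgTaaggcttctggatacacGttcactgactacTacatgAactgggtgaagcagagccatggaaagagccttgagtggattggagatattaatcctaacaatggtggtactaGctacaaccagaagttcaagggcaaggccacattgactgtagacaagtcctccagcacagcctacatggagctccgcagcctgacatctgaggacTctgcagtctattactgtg
Ighv1-72: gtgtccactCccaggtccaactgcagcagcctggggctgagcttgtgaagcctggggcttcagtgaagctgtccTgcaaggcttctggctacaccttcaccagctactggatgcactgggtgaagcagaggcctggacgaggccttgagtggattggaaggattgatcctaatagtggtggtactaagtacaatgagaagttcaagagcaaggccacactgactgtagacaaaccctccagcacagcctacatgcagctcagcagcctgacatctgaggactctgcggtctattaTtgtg

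Sequencing depth is unknown, since FPKM keeps no read totals. The FPKM of a library summed to 477329 to 576687. Shb itself was 2.78 to 5.44 FPKM in the wild-type libraries and 0.37 to 1.44 FPKM in the Shb-inactivated libraries, which follows the labels. The libraries also differed in other ways, whose part in the immunoglobulin values was not tested. In wild-type replicate 1 only 12, and in Shb-inactivated replicates 1 and 2 only 13 and 12, of 41 symbols of small nucleolar RNAs (Snord and Snora genes) were above 0, against 22 to 33 elsewhere. They are called the snoRNA-poor libraries here. In Shb-inactivated replicates 3 and 4 and in wild-type replicate 3, the macrophage gene Lyz2 was above 1000 FPKM, against 16.9 to 292 FPKM elsewhere, and they are called the Lyz2-rich libraries. The defining endothelial genes Pecam1 and Cdh5 were at 569 to 1237 FPKM and 374 to 616 FPKM in all libraries.

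Immunoglobulin transcripts were present in every library at a low level, and their sum overlapped between the groups. They made up 0.00703% to 0.0869% of all FPKM. The sum over the 225 genes was 446, 173, 185 and 321 FPKM in the wild-type libraries 1 to 4. In the Shb-inactivated libraries the lowest sum was 39.7 FPKM, the median 88.9 FPKM and the highest 313 FPKM. Shb-inactivated replicates 1 and 2, at 229 and 313 FPKM, lay inside the wild-type range, while replicates 3, 4, 5 and 6 lay below it at 39.7, 55.0, 47.1 and 123 FPKM. The 2 Shb-inactivated libraries inside the wild-type range are snoRNA-poor, and the highest wild-type library is snoRNA-poor too. The part of that library difference in the immunoglobulin values was not tested.

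The mean FPKM was higher in the wild-type group for 185 of the 225 genes, 82.2%, against 55.7% of all 28299 genes above 0 in any library. With every one of these genes kept in the limma model, 47 of the 225 had an unadjusted p below 0.05 with a lower level in Shb-inactivated libraries, where 2.49% of all genes did. None had such a p in the other direction, where 1.12% of all genes did. An exact permutation test gave 39 lower genes, against 2.72% of all genes, and 0 higher, against 1.27%. No immunoglobulin gene and no other gene had an adjusted p below 0.05 in limma. These genes vary together across libraries and share their source cells, so their number is not a number of independent observations.

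After the filter that the main model used, at least 1 FPKM in at least 4 libraries, 37 of the 225 genes were tested among 12805, namely 29 V genes and 8 constant genes. A gene can pass that filter through the wild-type libraries alone, so the counts over these 37 are given as a description. An unadjusted limma p below 0.05 was found for 14 of them with a lower level in Shb-inactivated libraries and for 0 with a higher level, against 1.76% and 1.69% of all tested genes. By the exact permutation test 9 had a p below 0.05, all of them lower, against 1.56%. The smallest adjusted limma p of any of them was 0.989. The count of 14 was 25 without the 3 snoRNA-poor libraries (background 2.91%), 8 without the 3 Lyz2-rich libraries (2.71%), 7 without wild-type replicate 1 (1.41%) and 7 without wild-type replicate 4 (3.28%). After rescaling to a constant sum per library (TPM) it was 12 (1.11%), with 0 higher, while over all tested genes 142 were lower and 489 higher instead of 226 and 216. After quantile normalization it was 9 (1.3%), with 166 lower and 297 higher over all tested genes.

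In 7 of the 225 genes every wild-type library lay above every Shb-inactivated library, against 0.258% of all genes above 0 in any library, and in none was the order the other way. They were Iglc2 and 6 V genes, Ighv1-34, Ighv1-80, Ighv1-85, Igkv4-50, Igkv4-57 and Igkv4-69. These V genes are named because the count is small and were chosen after their values were seen. Ighv1-80 was 0.87 to 3.13 FPKM in wild-type and 0 to 0.77 FPKM in Shb-inactivated libraries. Igkv4-57 was 0.34 to 2.22 FPKM and 0 to 0.33 FPKM, so the margin between the groups was as small as the smallest values in these files. Without the 3 snoRNA-poor libraries, which leaves 3 against 4, the count was 55 of 225, against 2.68% of all genes, and the wild-type mean was higher for 204 genes, against 53.8%. The 3 snoRNA-poor libraries are 1 against 2 and too few to test among themselves.

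The constant regions carried the highest single values. Igkc, the constant region of kappa light chains, was 93.9, 33.8, 40.9 and 70.1 FPKM in the wild-type libraries 1 to 4. In Shb-inactivated libraries its lowest level was 5.73, its median 17.6 and its highest 74.9 FPKM. The Shb-inactivated replicates 1 and 2, at 48.7 and 74.9 FPKM, overlapped the wild-type libraries, and the other 4, at 5.73 to 24.9 FPKM, lay below all of them. The group means were 59.7 ± 27.7 FPKM (SD, n = 4) and 29.0 ± 27.5 FPKM (SD, n = 6). The log2 difference was -1.44 (limma SE 0.66, 95% interval -2.91 to 0.03), with an exact permutation p of 0.1 and a limma adjusted p of 0.989. Without the 3 snoRNA-poor libraries it was -1.97 (exact permutation p = 0.0571), and without the 3 Lyz2-rich libraries -0.93 (exact permutation p = 0.314). Without Shb-inactivated replicate 2 alone it was -1.81 (exact permutation p = 0.0476).

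Ighm, the constant region of IgM, had the same order of libraries in broad terms. It was 55.1, 27.7, 31.9 and 46.7 FPKM in the wild-type libraries 1 to 4, and 8.21 to 35.7 FPKM with a median of 15.7 FPKM in Shb-inactivated libraries. Replicates 1 and 2 of the Shb-inactivated group, at 35.7 and 34.1 FPKM, again lay among the wild-type libraries. The log2 difference of Ighm was -1.17 (limma SE 0.43, 95% interval -2.14 to -0.21), with an exact permutation p of 0.0524, an unadjusted limma p of 0.0216 and a limma adjusted p of 0.989. Without the 3 snoRNA-poor libraries it was -1.52 (exact permutation p = 0.0571), and without the 3 Lyz2-rich libraries -0.93 (exact permutation p = 0.171). Without Shb-inactivated replicate 1 or 2 alone the exact permutation p of Ighm was 0.0397, and without wild-type replicate 1 or 4 alone it was 0.131. Ighd, the constant region of IgD that is spliced from the same primary transcript as Ighm, was 7.21, 4.43, 4.04 and 12.4 FPKM in wild-type and 0.64 to 7.53 FPKM with a median of 2.65 FPKM in Shb-inactivated libraries. Its groups overlapped and its log2 difference was -0.96 (exact permutation p = 0.119). The level of Ighd over that of Ighm was 0.127 to 0.264 in wild-type and 0.0730 to 0.225 in Shb-inactivated libraries, so the ratio of IgD to IgM transcripts covered much the same range in both groups.

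The lambda constant genes Iglc2 and Iglc3, whose sequences are printed above, had lower means in the Shb-inactivated group. Iglc2 was 6.33, 4.97, 5.84 and 10.2 FPKM in wild-type libraries, and its lowest, median and highest Shb-inactivated levels were 0.72, 2.27 and 4.93 FPKM. The groups did not overlap, although the lowest wild-type library and the highest Shb-inactivated library differed only in the second decimal. It was the only one of the 37 tested immunoglobulin genes without overlap, against 0.18% of all tested genes, and the only constant gene with an exact permutation p below 0.05 (p = 0.0143). Its log2 difference was -1.27 (limma SE 0.36, 95% interval -2.07 to -0.47) and its limma adjusted p was 0.989. Without the 3 snoRNA-poor libraries the log2 difference was -1.58, and without the 3 Lyz2-rich libraries -1.09, each with an exact permutation p of 0.0571. In both subsets the groups still did not overlap for Iglc2.

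Iglc3 was 6.50, 4.50, 4.94 and 10.8 FPKM in wild-type libraries and 0.99 to 6.28 FPKM with a median of 2.59 FPKM in Shb-inactivated libraries. The groups overlapped through Shb-inactivated replicate 2, and the log2 difference was -1.07 (exact permutation p = 0.0524, limma adjusted p = 0.989). Without wild-type replicate 2, wild-type replicate 3 or Shb-inactivated replicate 2 its exact permutation p was 0.0357, 0.0476 and 0.0238. Because Iglc2 and Iglc3 are so similar, how reads were shared between them is uncertain, and the authors' treatment of reads that match both is not given in the sources used here. Iglc1, another lambda constant gene, was 13.8, 3.25, 2.56 and 4.36 FPKM in wild-type libraries and 0.16 to 6.24 FPKM in Shb-inactivated libraries, with a log2 difference of -0.95 (exact permutation p = 0.19). Iglc4 was above 0 only in wild-type replicate 4, at 0.19 FPKM.

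**Figure D1:**
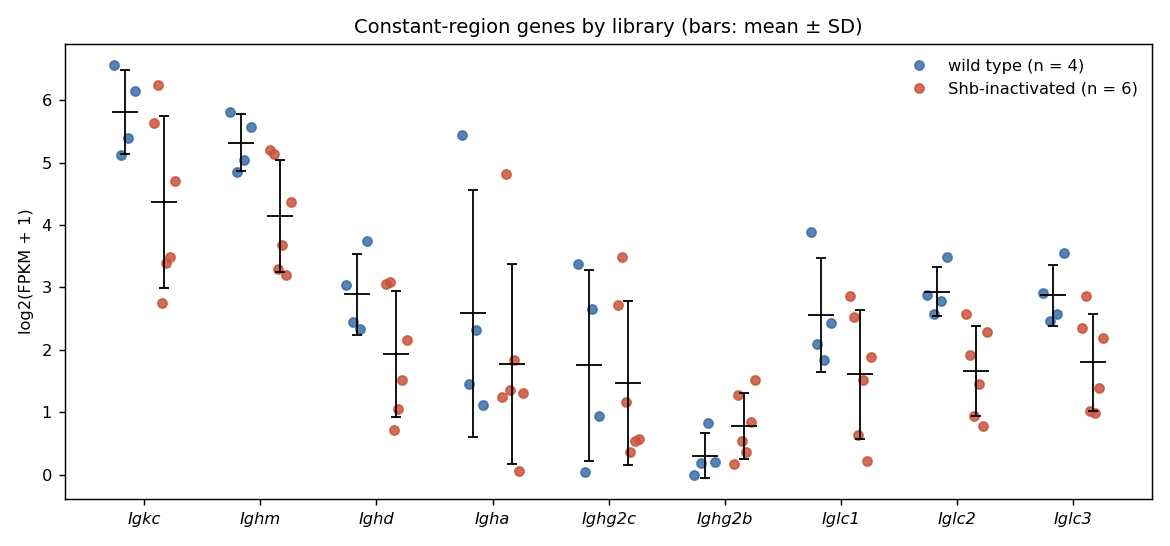
Level of 9 constant-region genes on the vertical axis, as log2(FPKM + 1), for each wild-type library (blue, n = 4) and Shb-inactivated library (red, n = 6), with horizontal bars for the mean and vertical bars for ± 1 SD. Igkc and Ighm are the highest, the groups overlap for every gene except Iglc2, and Igha is set apart in 1 library of each group.

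Levels of the switched isotypes differed widely between libraries. Igha, the constant region of IgA, was 42.6, 1.74, 3.98 and 1.16 FPKM in the wild-type libraries 1 to 4 and 1.37, 27.2, 1.55, 2.57, 0.04 and 1.48 FPKM in Shb-inactivated replicates 1 to 6. A single library of each group, wild-type replicate 1 and Shb-inactivated replicate 2, was therefore far above the rest, and the other 8 libraries were at 3.98 FPKM or below. Both are snoRNA-poor, and the part of this in the Igha level was not tested. The log2 difference of Igha was -0.81 (exact permutation p = 0.471), and without wild-type replicate 1 it was 0.14. Jchain, which encodes the joining chain that links secreted IgA and IgM, was 10.7 and 6.35 FPKM in the same pair of libraries and 0.18 to 1.81 FPKM in the others.

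Among the IgG genes only Ighg2c and Ighg2b reached 1 FPKM. Ighg2c, an IgG2 subclass of the C57BL/6 background, was 9.38, 0.03, 5.27 and 0.91 FPKM in wild-type libraries and 0.29 to 10.2 FPKM with a median of 0.86 FPKM in Shb-inactivated libraries. Ighg2b was 0, 0.14, 0.78 and 0.15 FPKM in wild-type libraries and 0.13 to 1.87 FPKM with a median of 0.63 FPKM in Shb-inactivated libraries. Both sets of libraries overlapped, with log2 differences of -0.28 (exact permutation p = 0.838) and 0.48 (exact permutation p = 0.167). Ighg2b was the 1 constant gene of 12 whose log2 difference was above 0. Ighg1 was at most 0.13 FPKM and Ighg3 at most 0.09 FPKM in any library.

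Seen as shares of the summed heavy chain constant FPKM, IgM was the leading isotype everywhere. The share of Ighm was 48.2%, 81.1%, 69.3% and 76.1% in wild-type replicates 1 to 4, and 42.4% to 73.7% with a median of 71.7% in Shb-inactivated libraries. The lowest share of each group belonged to the library with the high Igha level, in which Igha made up 37.2% (wild-type replicate 1) and 33.8% (Shb-inactivated replicate 2). Elsewhere Igha made up 0.351% to 16.1%. The 4 IgG genes together made up 0.821% to 13.3% in wild-type and 3.56% to 14.5% in Shb-inactivated libraries. The ranges of all isotype shares overlapped between the groups.

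**Figure D2:**
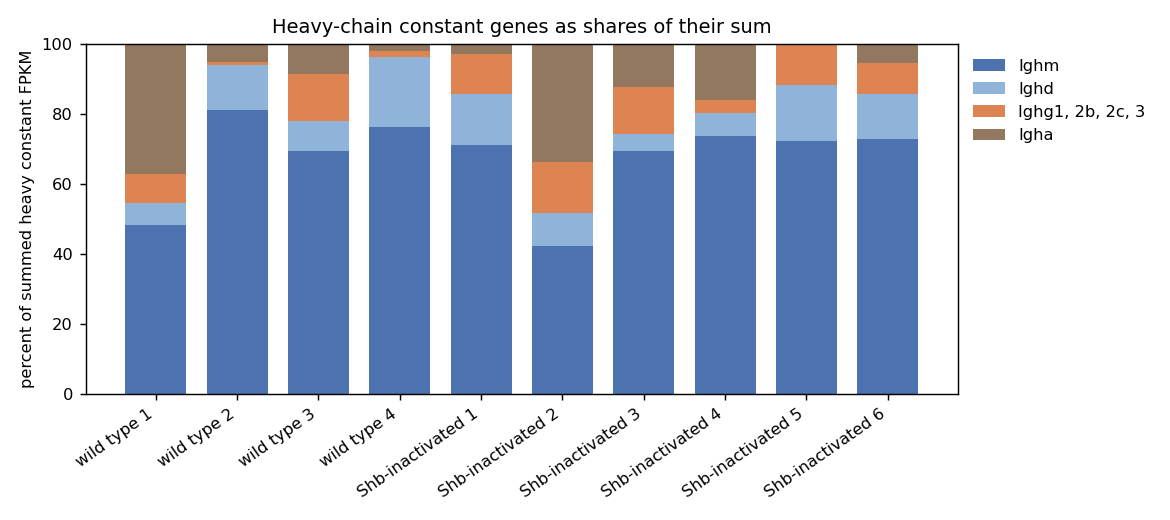
Stacked bars give, for each of the 10 libraries, the percent of summed heavy constant FPKM that came from Ighm, Ighd, the 4 Ighg genes and Igha. Ighm is the largest segment in every library, and the Igha segment stands out in wild-type replicate 1 (37.2%) and Shb-inactivated replicate 2 (33.8%).

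The balance of kappa and lambda light chains was alike in range. The lambda constant genes made up 22.1%, 27.3%, 24.6% and 26.7% of the light chain constant FPKM in wild-type libraries and 15.6% to 32.6% in Shb-inactivated libraries. The lambda V genes made up a smaller part of the light chain V signal, 7.48% to 13.6% in wild-type and 0.701% to 22.4% in Shb-inactivated libraries. The largest and the smallest share were both in Shb-inactivated libraries, replicates 4 and 3, whose lambda V sums were 3.24 and 0.09 FPKM.

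The number of V genes detected differed widely and had more than 1 measure. Above 0 were 118, 169, 152 and 183 of the 213 V genes in wild-type replicates 1 to 4, and 155, 108, 54, 100, 90 and 136 in Shb-inactivated replicates 1 to 6. At 1 FPKM or more were 58, 30, 25 and 57 V genes in wild-type and 34, 41, 4, 2, 2 and 13 in Shb-inactivated libraries. The groups overlapped by either measure, through the Shb-inactivated replicates 1 and 2 in the second. By the first measure wild-type replicate 1 had the fewest V genes of its group, and by the second it had the most. The smallest V value above 0 was 0.34 FPKM in wild-type replicate 1 and 0.25 FPKM in Shb-inactivated replicate 2, against 0.04 to 0.08 FPKM elsewhere, so a V gene needed a higher level to be listed in those libraries. The number above 0 is therefore not comparable between those libraries and the rest. Over all libraries, 119 of the 213 V genes never reached 1 FPKM and 24 of the 225 genes were above 0 in 1 library only.

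**Figure D3:**
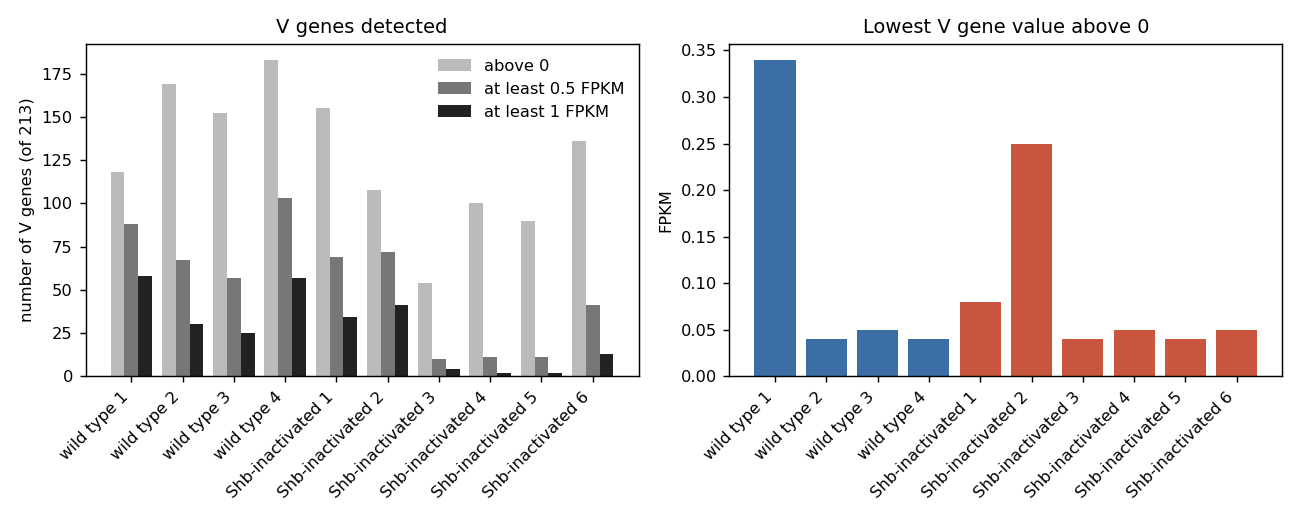
The left panel gives the number of the 213 V genes above 0, at 0.5 FPKM or more and at 1 FPKM or more in each library, and the right panel the lowest V value above 0 in FPKM (wild-type bars blue, Shb-inactivated bars red). At 1 FPKM or more, Shb-inactivated replicates 3, 4 and 5 hold 4, 2 and 2 genes, and the lowest value is raised in wild-type replicate 1 (0.34) and Shb-inactivated replicate 2 (0.25).

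Summed over each class, heavy V genes were 74.1, 34.2, 33.1 and 58.0 FPKM in the wild-type libraries 1 to 4 and 6.03 to 59.9 FPKM with a median of 16.3 FPKM in Shb-inactivated libraries. Kappa V genes were 118, 52.3, 47.0 and 98.4 FPKM, and 11.2 to 76.9 FPKM with a median of 24.6 FPKM. The order of the libraries was close to that of the constant genes, with Shb-inactivated replicates 1 and 2 inside the wild-type range. The sum of kappa V over the level of Igkc was 1.15 to 1.55 in wild-type and 1.03 to 2.22 in Shb-inactivated libraries, so variable and constant parts of the kappa chain stayed within about the same ratio. The mean level was higher in wild-type for 87 of 110 heavy V and 84 of 100 kappa V genes, against the 55.7% of all genes given above.

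No single heavy or kappa V gene held most of the signal of its class. The most abundant heavy V gene took 5.63% to 18.3% of the heavy V signal and the most abundant kappa V gene 6.36% to 16.3% of the kappa V signal. The highest heavy share was in Shb-inactivated replicate 5, where the leading gene Ighv1-82 was only 1.43 FPKM, and shares of so small a sum rest on few fragments. The Ighv1 family, with 56 of the 110 heavy V genes, took 51.0% to 79.3% of the heavy V signal in every library. The Igkv4 family is the largest kappa family with 28 genes, and it took 7.41% to 18.7% of the kappa V signal. The Igkv1 family, with 9 genes, took 11.2% to 39.1%. The 18 V genes annotated as pseudogenes contributed 0.185% to 1.96% of the V signal.

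The leading heavy V genes differed between libraries. Ighv1-26 led in wild-type replicates 2 and 4 (2.61 and 5.43 FPKM) and in Shb-inactivated replicates 2 and 6 (8.72 and 1.24 FPKM), and it was among the top 3 in 6 libraries. Ighv1-72 led in wild-type replicate 1 at 7.46 FPKM and was at most 0.93 FPKM in every other library. Ighv1-64 led in wild-type replicate 3 (2.36 FPKM), Ighv3-6 in Shb-inactivated replicate 1 (4.74 FPKM), Ighv1-81 in replicates 3 and 4 (0.99 and 0.89 FPKM) and Ighv1-82 in replicate 5. In all, 6 heavy V genes led at least 1 library.

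The kappa side was similar, with 5 leading genes. Igkv10-96 led in wild-type replicates 1, 2 and 4 at 19.2, 3.56 and 6.26 FPKM, and Igkv1-110 in wild-type replicate 3 at 4.26 FPKM. In Shb-inactivated libraries Igkv1-135 led replicate 1 (4.12 FPKM), Igkv1-117 led replicates 2, 3 and 5 (12.2, 2.05 and 1.36 FPKM), Igkv1-110 led replicate 4 (1.04 FPKM) and Igkv19-93.2 led replicate 6 (2.48 FPKM). Some margins were small: in Shb-inactivated replicate 3 Igkv1-117 took 16.1% of the kappa V signal, Igkv1-110 15.5% and Igkv10-96 15.3%. In Shb-inactivated replicate 1 Igkv10-96 was next to the leader, at 3.04 FPKM. Among the lambda V genes Iglv1 led in 8 libraries and Iglv3 in 2, wild-type replicate 3 and Shb-inactivated replicate 5.

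**Figure D4:**
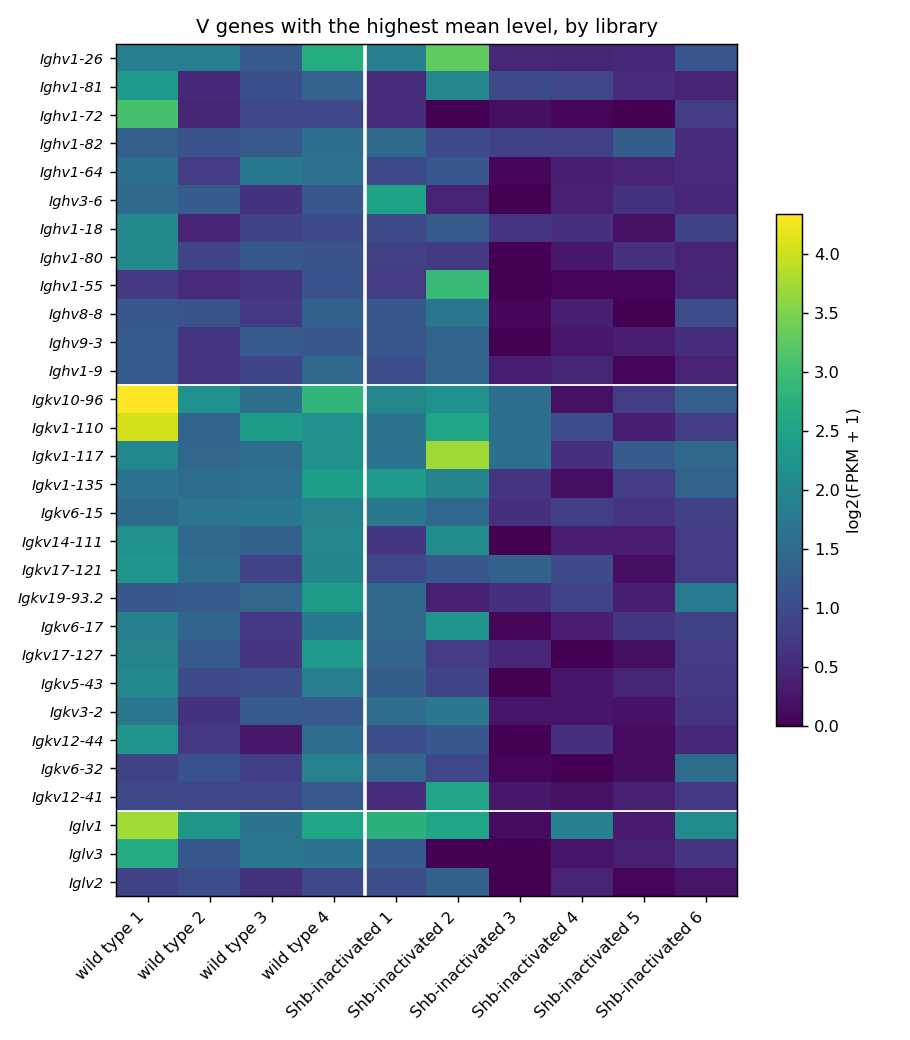
Colour gives log2(FPKM + 1) of the V genes with the highest mean levels (rows) in the 10 libraries (columns), with a white vertical line between wild-type and Shb-inactivated libraries and horizontal lines between heavy, kappa and lambda genes. Single bright cells mark genes high in 1 library, such as Ighv1-72 in wild-type replicate 1 (7.46 FPKM) and Igkv1-117 in Shb-inactivated replicate 2 (12.2 FPKM), and Shb-inactivated replicates 3, 4 and 5 are dark over most rows.

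Among tested V genes, Iglv3 had the smallest p. This lambda V gene was 5.34, 1.29, 2.33 and 2.16 FPKM in wild-type libraries and 1.40, 0, 0, 0.19, 0.31 and 0.57 FPKM in Shb-inactivated replicates 1 to 6. Only Shb-inactivated replicate 1 reached the wild-type range. Its log2 difference was -1.39 (limma SE 0.32, 95% interval -2.09 to -0.68, exact permutation p = 0.00952), it ranked 5 of 12805 genes by unadjusted limma p, and its limma adjusted p was 0.989. Without the 3 snoRNA-poor libraries it was -1.21 (exact permutation p = 0.0286, the smallest that 3 against 4 can give), and without the 3 Lyz2-rich libraries -1.26 (exact permutation p = 0.0857). Iglv1, at 2.17 to 12.4 FPKM in wild-type and 0.09 to 5.90 FPKM in Shb-inactivated libraries, had a log2 difference of -0.93 (exact permutation p = 0.214). Iglv2 was 0.56 to 1.04 FPKM and 0 to 1.54 FPKM.

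Ighv1-64 was the heavy V gene with the smallest limma p. It was 2.05, 0.71, 2.36 and 2.11 FPKM in wild-type libraries and 0.04 to 1.27 FPKM with a median of 0.39 FPKM in Shb-inactivated libraries, and the groups overlapped through wild-type replicate 2. The log2 difference was -0.86 (exact permutation p = 0.0238, limma adjusted p = 0.989), and -1.05 without the 3 snoRNA-poor libraries (exact permutation p = 0.0286). Without wild-type replicate 1, 3 or 4 the exact permutation p was 0.0595. Ighv1-72, which was below the filter of the model, was 7.46, 0.37, 0.93 and 0.89 FPKM in wild-type libraries and 0 to 0.73 FPKM in Shb-inactivated libraries. The log2 difference of Ighv1-72 was -1.08 (exact permutation p = 0.0143), and without wild-type replicate 1 it was -0.51 (exact permutation p = 0.0833). Its exact permutation p was 0.114 without the 3 snoRNA-poor or the 3 Lyz2-rich libraries. Ighv1-26 was 1.36 to 5.43 FPKM and 0.37 to 8.72 FPKM (exact permutation p = 0.295), Ighv1-81 was 0.41 to 4.03 FPKM and 0.33 to 3.02 FPKM (exact permutation p = 0.362), and Ighv1-82 was 1.17 to 2.03 FPKM and 0.47 to 1.79 FPKM (exact permutation p = 0.138). Ighv3-6 was 0.55 to 1.80 FPKM and 0 to 4.74 FPKM (exact permutation p = 0.476).

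Of the kappa V genes, Igkv10-96 was 19.2, 3.56, 2.02 and 6.26 FPKM in wild-type libraries and 0.14 to 3.52 FPKM with a median of 1.73 FPKM in Shb-inactivated libraries. The wild-type mean rests mainly on replicate 1. Its log2 difference was -1.41 (limma SE 0.54, exact permutation p = 0.0333, limma adjusted p = 0.989), and without wild-type replicate 1 it was -0.88 (exact permutation p = 0.131). Without wild-type replicate 4 or any one of Shb-inactivated replicates 3 to 6 the exact permutation p was 0.0556 to 0.0873. Without the 3 snoRNA-poor libraries it was -1.26 (exact permutation p = 0.0571). Igkv6-15, which led no library, was 1.83, 2.26, 2.36 and 2.83 FPKM in wild-type libraries, against 0.50 to 2.36 FPKM in Shb-inactivated libraries (log2 difference -0.71, exact permutation p = 0.0238, limma adjusted p = 0.989). Leaving out any one wild-type library, or one of Shb-inactivated replicates 3 to 6, gave an exact permutation p of 0.0714 to 0.0952. Igkv1-110 and Igkv1-117, the near-identical pair printed above, differed in how they were spread. Igkv1-110 was 1.64 to 15.6 FPKM in wild-type and 0.28 to 4.91 FPKM in Shb-inactivated libraries, with a log2 difference of -1.18 (exact permutation p = 0.0857). Igkv1-117 was 1.71 to 3.67 FPKM and 0.51 to 12.2 FPKM, with a log2 difference of -0.09 (exact permutation p = 0.905). Igkv1-135 was 1.88 to 4.43 FPKM and 0.12 to 4.12 FPKM (exact permutation p = 0.224).

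Genes outside the immunoglobulin set were ranked by how closely their levels followed Igkc or Ighm. Among 12768 such tested genes, those with the highest Pearson correlation with Igkc over the 10 libraries, on the log2 scale, included Ly6d, Cd79a, Btla, Mzb1, Blk, Pou2af1 and Atp2a3, from 0.976 to 0.963. For Ighm they included Cd79b, Gm8369, Hnrnpl, H2-Ob, Tbc1d10c.1, Cd79a and Map3k5, from 0.985 to 0.955. Cd79a and Cd79b are the signalling chains of the B cell receptor, and Blk is a kinase of B cells. Ly6d, Btla and Atp2a3 of the first set and Gm8369, Hnrnpl, Tbc1d10c.1 and Map3k5 of the second are in none of the gene lists used here. These correlations are descriptions across 10 libraries. The group labels and the unknown depth of each library are the same for every gene compared. Cd79b was 11.9, 5.99, 7.06 and 15.04 FPKM in wild-type libraries and 7.95, 7.31, 1.51, 1.97, 1.42 and 3.61 FPKM in Shb-inactivated replicates 1 to 6, so the same 4 Shb-inactivated libraries as for Igkc lay below every wild-type library.

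Igha followed a different gene. Its highest correlation was with Jchain (0.993), a result examined after the Igha values were seen. Wild-type replicate 1 and Shb-inactivated replicate 2 were the highest for both genes, and the correlation without them was not computed. Among the other libraries both genes were highest in wild-type replicate 3, with Igha at 3.98 and Jchain at 1.81 FPKM. Both were lowest in Shb-inactivated replicate 5, with Igha at 0.04 and Jchain at 0.18 FPKM. The genes next in rank were Tubgcp4, Stk11ip, Ambra1, Ift172, Ulk3, Gm37240 and Thtpa, from 0.958 to 0.939. They are in none of the gene lists used here.

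**Figure D5:**
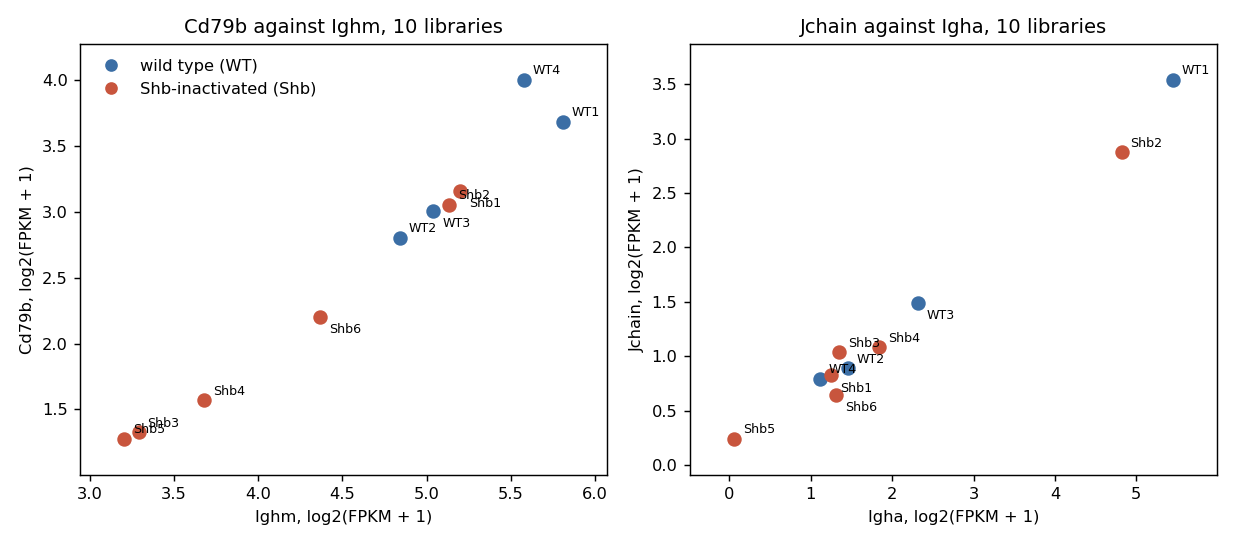
Each point is 1 library (wild type blue, Shb-inactivated red), with Cd79b against Ighm on the left and Jchain against Igha on the right, all as log2(FPKM + 1). The libraries are spread along the whole Ighm range, whereas in the right panel wild-type replicate 1 and Shb-inactivated replicate 2 stand alone at the top.

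In a list of 24 genes of B cell identity and receptor signalling, 23 were in the files and 21 were tested. Of these, 9 had an unadjusted limma p below 0.05 with a lower level in Shb-inactivated libraries and 0 with a higher level, against 1.76% and 1.69% of all tested genes, and none had an adjusted p below 0.05. The median log2 difference of the 21 was -0.60, beside 0.01 over all tested genes. The 3 with the highest mean FPKM were Ebf1, Cd72 and Cd79b. Cd79b was among the 9, while Ebf1, Cd72 and Cd55 were not. Ebf1, a transcription factor also made outside B cells, was 8.80 ± 1.78 FPKM (SD, n = 4) and 10.7 ± 2.90 FPKM (SD, n = 6), Cd72 was 10.1 ± 8.24 and 8.52 ± 5.48 FPKM, and Cd55, which many cell types carry, was 6.65 ± 2.16 and 5.16 ± 1.12 FPKM. Cd22, named after its values were seen, was 2.69 to 5.45 FPKM in wild-type and 1.43 to 6.91 FPKM in Shb-inactivated libraries, highest in Shb-inactivated replicate 3, where Igkc was among the low ones. For Cd79b, given above, the exact permutation p was 0.0524 and the limma adjusted p 0.989.

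Of 8 tested genes of plasma cells and secretion, 6 had a log2 difference below 0, and the median of the 8 was -0.39. An unadjusted limma p below 0.05 was found for 2 with a lower level in Shb-inactivated libraries, Mzb1 and Irf4, and for 1 with a higher level, Prdm1, which is also made outside plasma cells, against 1.76% and 1.69% of all tested genes. Xbp1, Prdm1 and Fkbp11, the highest of the list, were 107 ± 15.7, 16.4 ± 2.13 and 9.02 ± 3.76 FPKM (SD, n = 4) in wild-type and 125 ± 14.5, 20.7 ± 2.35 and 6.89 ± 1.74 FPKM (SD, n = 6) in Shb-inactivated libraries. Of 10 genes of V(D)J recombination, surrogate light chain and class switching, Ung and Bcl6 were tested, and 0 of them had an unadjusted limma p below 0.05, against the same background. Ung was 1.65 to 5.40 FPKM and Bcl6 0.98 to 5.93 FPKM over the 10 libraries, and the other 8 genes did not exceed 1.52 FPKM in any. The highest of the 10 were Ung, Bcl6 and Dntt. Their means were 3.42, 2.47 and 0.658 FPKM in wild-type and 3.29, 1.85 and 0.498 FPKM in Shb-inactivated libraries. Of 7 tested immunoglobulin receptor genes, 5 had a log2 difference below 0 and 0 had an unadjusted limma p below 0.05. Fcer1g, Fcgrt and Fcgr3, the highest of them, ranged from 5.51 to 319, from 28.4 to 136 and from 0.55 to 244 FPKM, and all 3 were highest in wild-type replicate 3, a Lyz2-rich library.

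Markers of several cell types differed between libraries as well. The background for the counts of higher wild-type means is the 55.7% of all genes given above. Of 6 B cell markers, 5 had a higher wild-type mean, and their sum was 19.9 to 45.3 FPKM in wild-type and 7.40 to 29.5 FPKM in Shb-inactivated libraries. None of the 6 was at 0 in all libraries. Of 5 plasma cell markers in the files, 3 had a higher wild-type mean. Their sums in Shb-inactivated libraries, 21.02 to 36.61 FPKM, enclosed those of every wild-type library. Of 10 T and NK cell markers 9 had a higher wild-type mean, with sums of 13.6 to 33.5 FPKM and 6.36 to 26.8 FPKM. Of 9 macrophage markers 6 had a higher wild-type mean, with sums of 29.2 to 5170 FPKM and 26.2 to 3948 FPKM. All 5 melanoma markers had a higher wild-type mean, with sums of 81.2 to 1050 FPKM and 11.1 to 325 FPKM. The 7 endothelial markers all had a higher Shb-inactivated mean, with sums of 2362 to 3260 FPKM and 2956 to 3970 FPKM. The part of these cell type differences in the immunoglobulin values was not tested.

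Along each locus, V genes at every distance from the constant regions contributed. The 36 placed heavy V genes farthest from Ighm took 30.9% to 49.6% of the signal of placed heavy V genes, and the 37 nearest took 11.3% to 33.9%. In the kappa locus the 32 V genes farthest from Igkc took 36.1% to 71.3% and the 32 nearest 15.1% to 42.9%. The mean shares differed little between the groups, at 41.0% in wild-type and 39.3% in Shb-inactivated libraries for the farthest heavy V genes and 45.2% and 46.6% for the farthest kappa V genes.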

How the data were processed

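Total RNA of CD31-positive cells from B16F10 tumours (4 wild-type and 6 Shb-inactivated libraries) was depleted of ribosomal RNA and made into stranded libraries, per the labels' protocols. TopHat2 2.1.1, Cufflinks 2.2.1 and the build GRCm38 are listed in the submitters' processing notes. The authors deposited FPKM per gene symbol, with a decimal comma, and this other unit keeps no read totals. For the annotation, the use of strand and the treatment of reads that match several V genes, nothing is given in the sources used here. Library totals are therefore unknown, and low values and exact zeros are the least precise.

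Values were taken as log2(FPKM + 1), which understates changes of low genes. The 12805 genes that reached 1 FPKM in 4 or more of the 10 libraries were tested by limma 3.58.1 (R 4.3.3), two-sided, with the trend option and Benjamini-Hochberg adjusted over all tested genes with a threshold of 0.05. Single genes were tested by a two-sided exact permutation test that enumerates the 210 ways to assign 4 of 10 libraries, whose smallest p is 0.00476. Those p-values are not adjusted. Differences are Shb-inactivated minus wild type. The series text counts mice, and each p-value reflects only how far these libraries differ. Gene positions, identities (edlib 1.3.9) and sequences came from GENCODE vM21 on GRCm38.

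The members and lists were chosen with earlier results of these data known. Named were all constant genes, the 3 heavy, 3 kappa and 1 lambda V gene with the highest FPKM in each library, the 5 heavy and 5 kappa V genes with the highest mean, all lambda V genes, the 3 tested members with the smallest limma p in each direction, the 3 highest genes of each list, and the 8 genes most correlated with Ighm and with Igkc, of which 1 is not reported here. No tested member had a difference above 0. On simulated data of 12805 genes for this comparison, the limma step found 68% of 100 genes changed by log2 1. It found 92% of 100 changed by log2 2 and made 7 wrong calls. The simulated noise was independent between genes, whereas the immunoglobulin genes vary together across libraries. These rates therefore need not hold for them. Alternatives changed the pseudocount, scaling, filter, weights, trend, libraries and a block by replicate number. Those concerning small RNAs and myeloid transcripts were chosen after seeing the data. Plots were drawn with matplotlib 3.10.9.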

Additional observations from a re-analysis of the deposited data

Results flagged for a closer look

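Single libraries stood apart from the rest of their group in 20 of 91 groups of values examined. In each, the gap between the highest library and the next was a large part of the whole range of the group. The rule's nominal rate is about 1 in 20, but it does not apply here. Many of the genes were named for being among the highest of a library, and all share the same libraries. The count therefore cannot be set against chance. The high library was Shb-inactivated replicate 2 in 7 cases, wild-type replicate 1 in 6, wild-type replicate 4 in 4 and Shb-inactivated replicate 1 in 3. Of these 4 libraries, 3 are snoRNA-poor, and the part of that in the values was not tested.

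Wild-type replicate 1 was high for Igha (42.6 FPKM), the lambda constant gene Iglc1 (13.8 FPKM) and Ighg1 (0.13 FPKM). It was also high for the V genes Ighv1-72 (7.46 FPKM), Ighv1-54 (4.28 FPKM) and Igkv2-137 (4.08 FPKM). Ighv1-54 was at most 0.50 FPKM in every other library.

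Shb-inactivated replicate 2 was high for Igha (27.2 FPKM), Igkv1-117 (12.2 FPKM), Ighv1-26 (8.72 FPKM), Ighv1-55 (6.56 FPKM), Igkv12-41 (4.81 FPKM), Ighv1-81 (3.02 FPKM) and Ighv1-22 (1.34 FPKM). The next highest Shb-inactivated library had 0.71 FPKM of Ighv1-55 and 0.67 FPKM of Igkv12-41.

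Wild-type replicate 4 was high for Igkv1-135 (4.43 FPKM), Igkv19-93.2 (4.13 FPKM), Igkv12-41 (1.33 FPKM) and Iglc4 (0.19 FPKM), and Shb-inactivated replicate 1 for Ighv3-6 (4.74 FPKM), Ighv1-5 (4.72 FPKM) and Ighv5-9-1 (0.39 FPKM).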

How the results depend on the processing

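The count of immunoglobulin genes and of all genes with a limma adjusted p below 0.05 was 0 in all 22 alternative fits. For the 42 named genes, 696 alternative values were computed, of which 578 had the same direction and side of 0.05 as reported, 75 were no longer below 0.05, 20 were newly below it and 23 changed sign, in 7 genes. Igkc, Ighm, Ighd, Iglc1, Iglc2 and Iglc3 were below 0 in all 17 alternatives each, and the difference of Iglc2 was -1.66 to -0.67. Signs changed without the 3 Lyz2-rich libraries for Ighg2c (0.38), Ighv1-55 (0.27), Igkv1-117 (0.12) and Igkv12-41 (0.031), without the 3 snoRNA-poor libraries for Ighv1-5 (-0.25), with pseudocount 5 for Ighv1-55 (0.067) and Igkv1-117 (0.025), and under quantile normalization for Igkv1-117 (0.013). Leaving out 1 library at a time gave -0.85 to 0.26 for Ighg2c, -1.42 to 0.14 for Igha, -0.54 to 0.0027 for Ighv1-18, -0.48 to 0.10 for Ighv1-55 and -0.50 to 0.13 for Igkv1-117. The cause was not tested.

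The number of constant genes with an exact permutation p below 0.05, 1 as reported, was 2 with pseudocount 5 and 0 without the Lyz2-rich libraries, and 1 to 4 when 1 library was left out. Without the snoRNA-poor libraries it was 1 as well, but the gene was Ighg3, which was at most 0.09 FPKM in any library. The exact permutation p of Iglc2 was then 0.0571. The groups did not overlap there for Ighd, Ighm, Igkc, Iglc2 and Iglc3 either, yet none of these had such a p below 0.05. That test counts every split with an absolute difference of means as large, and 3 against 4 libraries allow few splits. Replicate numbers 1 to 4 occur in both groups, and the sample titles give no pairing beyond the number. The same-number correlations of deviations were 0.44, -0.32, 0.71 and -0.55, and those of unlike numbers ranged from -0.50 to 0.75. These values cannot show whether pairs existed. With a replicate block the count of constant genes was 0, since 4 pairs allow no exact permutation p below 0.125, and Ighg2c (0.18), Ighv1-55 (0.19) and Igkv1-117 (0.090) changed sign, while 5 tested immunoglobulin genes instead of 14 had a lower level with an unadjusted limma p below 0.05, against 1.52% of all tested genes. Multiplying FPKM by annotated exon length kept the share of the leading heavy V gene at 5.40% to 19.1% and of the leading kappa V gene at 5.92% to 18.0%, with another leading gene in 1 library each.

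Depth is unknown, and most V genes are near the smallest listed values. A V gene below 0.34 FPKM would not be seen in wild-type replicate 1.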
